A study of Mus musculus with 2 samples.

Results

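The genes described here are 9 feedback inhibitors of the ERK pathway, taken by symbol from the GENCODE M21 annotation of the mouse: the phosphatase genes Dusp1, Dusp4, Dusp5 and Dusp6, the Sprouty genes Spry1, Spry2 and Spry4, and the Spred genes Spred1 and Spred2. All 9 matched, out of 21884 protein-coding genes whose symbol is used once. Chromatin accessibility around them was read from DNase-seq, an assay that digests nuclei with the nuclease DNase I and sequences the ends it leaves, which pile up where DNA is not wrapped in nucleosomes. Both libraries came from the left cerebral cortex of postnatal male B6CASTF1/J mice aged 8 to 10 months, hybrids of a laboratory strain and the wild-derived CAST/EiJ strain, with no treatment and no second group. They are labelled biological replicates 1 and 2 and carry the same donor identifier, so the spread between them may leave out variation between animals. With 1 group of 2 libraries the values below are descriptions, and no test between conditions was possible.

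The ERK pathway carries signals from receptor tyrosine kinases through Ras, Raf and MEK to the kinases ERK1 and ERK2. In neurons it is switched on by growth factors and by synaptic activity, and active ERK drives early-response genes through transcription factors such as CREB and the partners of SRF. Several of the genes it switches on act back on it. The DUSP proteins among them, also called MAP kinase phosphatases, remove phosphate from ERK or from related MAP kinases, while Sprouty and Spred proteins dampen signalling between the receptor and Raf.

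All 9 genes had an accessible promoter in both libraries, where 54.9% of all protein-coding genes did. A promoter was called accessible where a peak of the stricter of the deposited peak lists overlapped the 1000 bp on either side of any annotated start of the gene. The cell types of the tissue were measured together, so a site open in fewer cells and a site less open in each cell cannot be told apart. Besides the promoter, 6 of the 9 genes had a peak called in both libraries more than 1000 bp from the start of any gene, against 29.1% of all protein-coding genes. The 6 and the 29.1% both took in 10 kb on each side of the gene, while the promoter counts used no such flank. Within the gene body alone the 6 were 3, and the share of all genes was not measured that way. Peak strength, the signal value the authors deposited with each peak, ranged widely at the promoters: the mean of the libraries was highest at Spry1, with 5.77 ± 1.02 (SD, n = 2 libraries), and lowest at Dusp4, with 1.42 ± 0.169. At Dusp4 the strongest promoter peak lay in a different site in each library, so its SD is not the spread at 1 site. The genes also differed in how densely stricter peaks lay around them, with Spry2 and Dusp6 highest per 10 kb of window and Spred2 and Dusp5 lowest. Over the gene and its 10 kb flanks, stricter peaks numbered 1 at Dusp5 to 7 at Dusp1, Spry2 and Spred1 in replicate 1, and 2 at Dusp5 and Spry1 to 11 at Spry2 in replicate 2. The broader list held 2 at Dusp5 to 9 at Dusp1, Spry2 and Spred2 in replicate 1, and 1 at Dusp5 to 11 at Dusp1 in replicate 2. Footprints numbered 6 at Dusp5 in both libraries and up to 35 at Dusp1 in replicate 1 and 41 at Spry2 in replicate 2.

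Footprinted stretches of some of the main sites are shown first, because the sequence itself is what the accessible sites of these genes share or do not share. A footprint is a short stretch inside accessible DNA that is cut less than its surroundings, as bound protein leaves it. Each of the following lines gives 120 bases of the GRCm38.p6 assembly (mm10), 5′ to 3′ in the direction of the gene, with capitals for the bases that lay in a deposited footprint of both libraries. Each stretch was chosen as the one of its site with the most such bases and no annotated exon. The amount of capitals is therefore not that of the whole site. The Dusp1 stretch is chr17:26508593-26508712 on the minus strand, the Dusp5 stretch chr19:53528981-53529100 on the plus strand, and the Dusp6 stretches are chr10:99263072-99263191 and chr10:99261270-99261389 on the plus strand. The Spry1 stretch is chr3:37639741-37639860 on the plus strand and the Spry2 stretch chr14:105898931-105899050 on the minus strand. The first 3 and the fifth are from promoters, and the Dusp6 upstream and Spry2 upstream stretches are from sites away from any start.
Dusp1 promoter: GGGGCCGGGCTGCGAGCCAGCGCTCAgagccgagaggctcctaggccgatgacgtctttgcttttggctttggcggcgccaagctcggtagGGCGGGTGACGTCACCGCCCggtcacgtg
Dusp5 promoter: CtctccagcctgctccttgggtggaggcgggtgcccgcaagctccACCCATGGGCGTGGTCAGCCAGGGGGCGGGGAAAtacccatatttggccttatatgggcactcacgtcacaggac
Dusp6 promoter: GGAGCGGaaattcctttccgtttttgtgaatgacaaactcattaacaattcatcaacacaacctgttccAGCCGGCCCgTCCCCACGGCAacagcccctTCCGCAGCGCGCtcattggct
Dusp6 upstream: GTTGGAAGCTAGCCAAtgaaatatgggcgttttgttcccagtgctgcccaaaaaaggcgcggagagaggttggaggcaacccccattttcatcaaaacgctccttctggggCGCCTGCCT
Spry1 promoter: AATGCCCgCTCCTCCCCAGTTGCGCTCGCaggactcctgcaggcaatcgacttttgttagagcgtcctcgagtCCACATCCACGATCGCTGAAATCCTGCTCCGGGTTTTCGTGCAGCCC
Spry2 upstream: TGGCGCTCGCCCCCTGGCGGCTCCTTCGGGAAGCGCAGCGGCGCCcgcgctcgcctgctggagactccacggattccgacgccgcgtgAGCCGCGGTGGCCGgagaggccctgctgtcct

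Motifs were searched on both strands in all accessible sites of the 9 genes and in the RefSeq promoter windows of GRCm38.p6. Those windows span the bases just before and after a start and held 7 of the 9 genes. Dusp4 and Spry4 were not among them. The motifs were the cyclic AMP response element TGACGTCA (CRE, bound by CREB), its looser form TGACGTNA, the AP-1 site TGANTCA, the ETS site CCGGAA, the EGR site GNGTGGGNG, the GC box GGGCGG, the CCAAT box, the TATA box TATAAA, the E-box CACGTG and the CArG box, which SRF binds. A full CRE also counts as the looser form, and an EGR site can overlap a GC box. A match says only that the letters are there.

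Dusp1 encodes an early-response phosphatase of the nucleus that acts on p38 and JNK as well as on ERK. Its strongest promoter peak, chr17:26508361-26508940, had a strength of 3.97 in replicate 1 and 3.56 in replicate 2, above the median of 2.58 among all genes with an accessible promoter. The same site held 12 footprints in replicate 1 and 9 in replicate 2, of which 7 in each overlapped one of the other library. One of those shared footprints, 21 bp in each library, enclosed a full CRE centred at -93 bp (negative is upstream of the nearest start), with a GC box centred in the same footprint on either side of it. It is the second run of capitals in the printed stretch, GGCGGGTGACGTCACCGCCC, which gives the bases common to both libraries. It was the 1 CRE match in the 27 sites of these genes called in both libraries. The looser form, with this CRE counted, had 3 matches there, or 11.1 per 100 sites against 3.79 over all shared sites. The other 2, at -18 bp of Dusp5 and 3554 bp after the start of Spry2, lay in no footprint of either library. Of the promoter windows, Dusp1 was 1 of 7 with a CRE, against 2.31% of all 20128 windows. The looser form was in 2 of 7, at Dusp1 and Dusp5, against 3.60%. Over all sites shared by the libraries, 63.1% of 702 CRE matches had their centre in a footprint of both. Of the EGR matches of the site, the one at -35 bp was footprinted in both libraries, and an E-box lay under a footprint of replicate 1 alone.

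GENCODE M21 gives Dusp1 a second, distant start beside that of Ergic1, a gene of the secretory pathway, so its annotated length is 56539 bp and its window takes in that shared start. The peak there, chr17:26561281-26561580, had a strength of 2.42 in replicate 1 and 2.21 in replicate 2 and cannot be told apart from a promoter peak of Ergic1. Downstream of Dusp1, 2 shared sites lay near the start of a long noncoding RNA gene, AC122252.2, with mean strengths of 1.06 ± 0.0507 and 1.40 ± 0.268. Dusp1 therefore had 7 stricter peaks in each library and no shared peak away from every start.

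Dusp4 encodes a nuclear phosphatase of ERK, p38 and JNK. Its promoter was the weakest of the 9, with strongest peaks of 1.30 in replicate 1 and 1.54 in replicate 2, at percentile 18.4 among genes with an accessible promoter. Those peaks lay in different sites, at -66 bp in replicate 1 and 783 bp in replicate 2. The strongest site of its window was instead in an intron, at chr8:34816241-34816440 and 9044 bp after the start, with a strength of 2.45 in replicate 1 and 2.93 in replicate 2. In each library that intronic site exceeded both shared promoter sites. It carried a footprint of 33 bp in each library, the longest in the Dusp4 window.

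Dusp5 encodes a nuclear phosphatase with high selectivity for ERK. It had a single site called in both libraries, chr19:53528941-53529160, at a strength of 3.48 in replicate 1 and 3.56 in replicate 2. The start of an antisense RNA gene, AC137853.2, lies within 1000 bp of it, and the promoters of the 2 genes cannot be told apart in this site. Its longest footprint was 35 bp in replicate 1 and 37 bp in replicate 2 and held a GC box near its 3′ end. A few bases further on, in lower case in the printed stretch, come 2 CArG boxes set end to end, ccatatttgg and ccttatatgg, centred at -41 and -31 bp. Neither lay in a footprint of either library. Dusp5 was the 1 gene of the 7 with a CArG box in its promoter window, against 1.51% of all windows.

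Dusp6 encodes the cytoplasmic phosphatase that is selective for ERK and is widely used as a readout of ERK activity. Its promoter peak, chr10:99262981-99263360, reached 3.81 in replicate 1 and 3.34 in replicate 2, and 6 of its footprints in each library overlapped one of the other. A broad upstream site, chr10:99261141-99261960, was centred at -1680 bp from the nearest start and had a strength of 2.24 in replicate 1 and 1.82 in replicate 2. It held 9 and 10 footprints, 4 of them shared in each library. Of its 3 CCAAT boxes, the one at -1947 bp was centred in a footprint of both libraries, at the end of the capitals GTTGGAAGCTAGCCAA. The same site held 2 CArG boxes and 1 ETS match, none of them in a footprint. Dusp6 had 6 stricter peaks in each library over a window of 24259 bp, and its density of 2.47 ± 0 peaks per 10 kb (SD, n = 2) was at percentile 99.2 of all protein-coding genes. The counts were equal but the peaks were not all the same, as 3 of its 7 sites were called in both libraries. With peaks within 200 bp joined, Dusp6 had 4 in replicate 1 and 6 in replicate 2. The share of that window with a false discovery rate of 0.001 or less, the accessible share, was less alike, at 11.5% in replicate 1 and 5.11% in replicate 2.

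**Figure D1:**
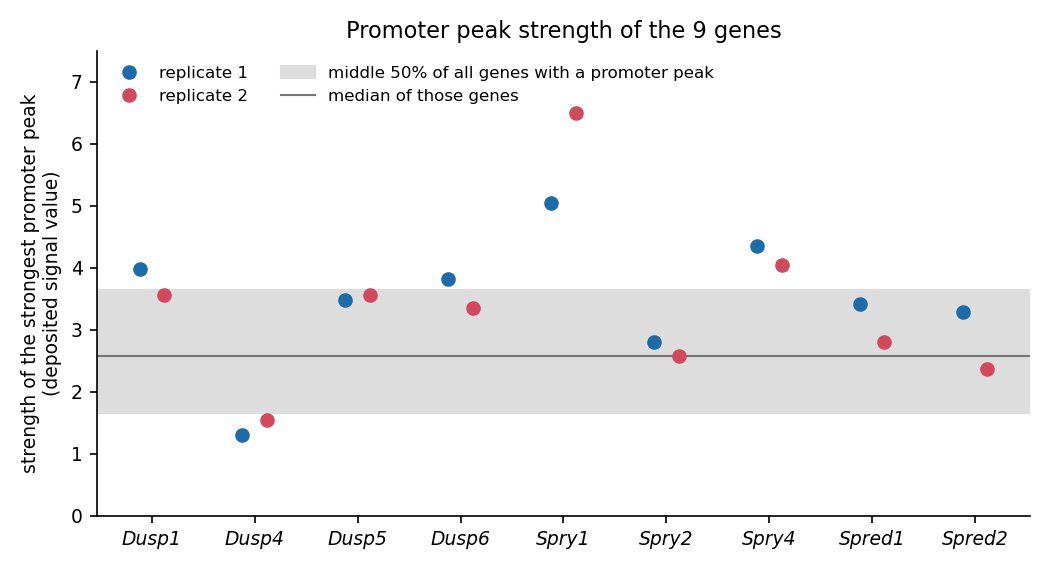
Strength of the strongest promoter peak (deposited signal value, vertical axis) of each of the 9 genes, with 1 point for each of the 2 libraries. The grey band spans 1.65 to 3.65, the middle of the distribution for the 12007 protein-coding genes whose promoter was accessible, and the line is their median of 2.58. Both points of Spry1 and of Spry4 lie above the band, as do Dusp1 and Dusp6 in replicate 1, and both Dusp4 points lie below it.

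The Sprouty genes encode adaptor-like inhibitors that are phosphorylated when receptors are active. Spry1 had the strongest promoter of the 9 in both libraries, chr3:37639721-37639960, at 5.04 in replicate 1 and 6.49 in replicate 2. The mean was at percentile 96.5 among genes with an accessible promoter, and the libraries differed there by 0.36 in log2 (replicate 2 over replicate 1), against a median of -0.12 and an SD of 0.33 over the 27311 sites that paired one to one. All 5 footprints of that site in replicate 1 and all 6 in replicate 2 overlapped one of the other library. The longest spanned 47 bp in replicate 1 and 52 bp in replicate 2. Of the motifs searched, 1 GC box matched in this site, under a footprint of replicate 1 alone. The start of an unclassified transcript, Gm42922, is within 1000 bp. No shared Spry1 site lay away from every start.

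Spry2, the Sprouty gene with the most accessible surroundings, had 7 stricter peaks in replicate 1 and 11 in replicate 2 in a window of 24873 bp. Its density of 3.62 ± 1.14 peaks per 10 kb was the highest of the 9 and at percentile 99.8 of all protein-coding genes. Some of the calls counted there overlapped or lay close to one another. With peaks within 200 bp joined, Spry2 had 6 in each library. The accessible share was 17.0% of the window in replicate 1 and 17.3% in replicate 2, at percentile 99.9. Of its 7 sites, 6 were called in both libraries and 4 of those were away from every start. The strongest, chr14:105898741-105899140 at -2122 bp, had a strength of 2.96 in replicate 1 and 3.81 in replicate 2. It exceeded the strongest promoter peak, centred at -612 bp, which had 2.80 in replicate 1 and 2.58 in replicate 2, so the 2 sites were close in replicate 1 and apart in replicate 2. The remaining shared sites were weaker, between 0.931 and 1.12 in mean strength, and one of them, at 3329 bp after the start, lay over the coding exon.

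Spry4 had the second strongest promoter of the 9, at chr18:38601281-38601520, with a strength of 4.35 in replicate 1 and 4.05 in replicate 2. Its promoter site also lies near the start of a long noncoding RNA gene, AC133601.1. All 4 footprints of replicate 2 in that site, and 4 of 5 in replicate 1, were shared. The other shared Spry4 site, at -9389 bp, was the weakest of the 27 shared sites, with 0.626 in replicate 1 and 0.648 in replicate 2.

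The Spred genes encode membrane-bound relatives of Sprouty that bring neurofibromin, a Ras-inactivating protein, to the membrane. Spred1 had a broad accessible stretch ahead of its start, chr2:117119816-117121100, with a top strength of 3.41 in replicate 1 and 2.80 in replicate 2 and 17 footprints in each library, of which 10 and 11 were shared. Its only other shared site, chr2:117180601-117180820, lay 59073 bp after the start in the 3′ untranslated region of an annotated transcript, with 2.37 in replicate 1 and 2.07 in replicate 2. The other 5 Spred1 sites were called in 1 library each, at strengths of up to 0.948, and all 5 were present in the broader lists of both libraries.

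Spred2 had a promoter peak of 3.29 in replicate 1 and 2.36 in replicate 2, a log2 difference of -0.48 (replicate 2 over replicate 1) and the largest among the 9 strongest promoter peaks. In this site 10 footprints were called in replicate 1 and 5 in replicate 2, with 3 shared in each. An upstream site at -3944 bp, chr11:19920181-19920680, had 1.80 in replicate 1 and 1.95 in replicate 2. Over its window of 119652 bp, the longest of the 9, Spred2 had the lowest density, 0.376 ± 0.0591 peaks per 10 kb, still above the median of all protein-coding genes.

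**Figure D2:**
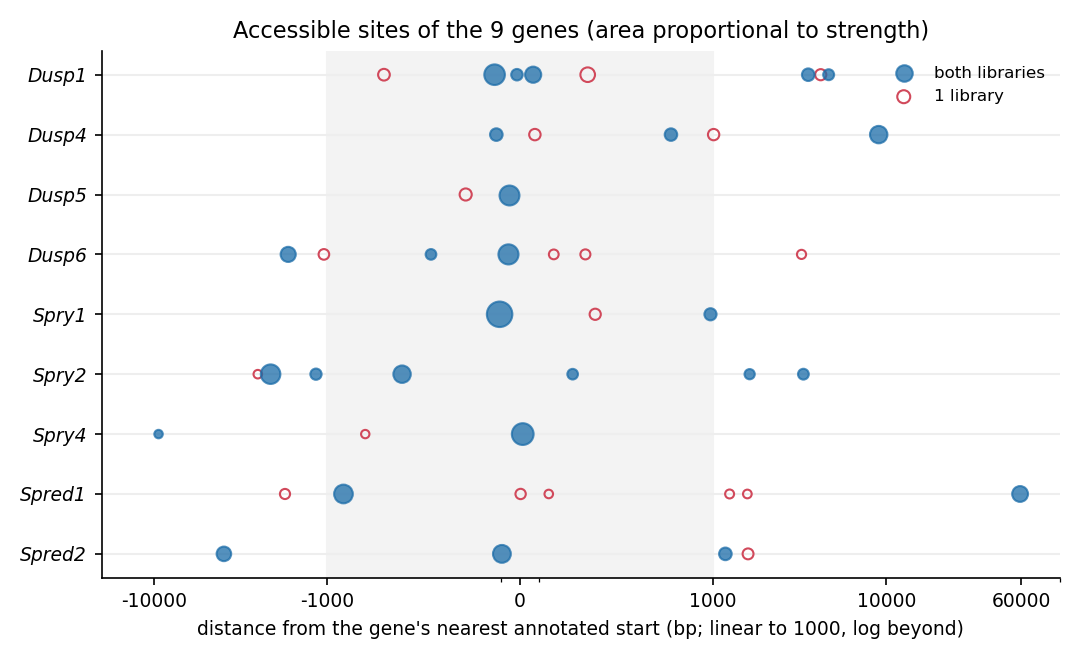
All 46 accessible sites of the 9 genes by distance from the gene's nearest annotated start (bp, linear to 1000 and logarithmic beyond; negative is upstream). The area of each circle is proportional to peak strength, filled where both libraries called the site (27) and open where 1 did (19), and the grey band marks 1000 bp on either side of the start. Most strong sites lie in the band, with the exceptions at Dusp4, Dusp6, Spry2, Spred1 and Spred2.

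The 3 strongest of the 9 shared sites away from any start were those of Spry2, of Dusp4 and of the Spred1 3′ untranslated region, with mean strengths of 3.38 ± 0.600, 2.69 ± 0.333 and 2.22 ± 0.209. Each of the 3 held a match to the CTCF consensus, and in each the match lay in a footprint of both libraries. CTCF is a zinc-finger protein that binds insulators and the anchors of chromatin loops. The footprints measured 47 bp in both libraries at Spry2, 33 bp in both at Dusp4, and 30 bp in replicate 1 and 32 bp in replicate 2 at Spred1, and no footprint in the window of its gene was longer. The CTCF consensus, a motif of 12 letters, was added to the search after the footprinted Spry2 sequence had been seen. No other shared site of the 9 genes held a match, so the 27 sites had 11.1 matches per 100 sites, against 14.0 per 100 over all shared sites. Neither the number of matches nor their footprints thus set the 9 genes apart. Across the genome a CTCF match in a shared site was in a footprint of both libraries for 82.8% of 4097 matches, so the same outcome at all 3 is near that share. The Spry2 and Spred1 matches are printed with 9 bases on either side, the 12 matched bases in capitals, at chr14:105899022-105899051 on the plus strand and chr2:117180694-117180723 on the minus strand of GRCm38.p6. Relative to its gene the Spry2 match reads on the opposite strand, so it appears in the longer stretch printed above as its reverse complement.
Spry2 upstream CTCF match: ccgaaggagCCGCCAGGGGGCgagcgccag
Spred1 untranslated-region CTCF match: taaagccatCCAGCAGGTGGCactgcagct

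For the other 10 motifs, 11 matches in the 27 shared sites were footprinted in both libraries, counting the Dusp1 CRE under both of its forms. They held no AP-1 match, against 7.83 per 100 sites over all shared sites, a rate at which few would be found in 27 sites. All 5 CArG boxes, at Dusp1, Dusp5 and Dusp6, lay outside footprints in both libraries, and over all shared sites 6.30% of 349 matches were footprinted in both. These 5 matches came to 18.5 per 100 sites, against 1.20 per 100 over all shared sites, and fell in 3 sites. The CArG box at Dusp1 was in the site at its distant start, not in the site with the CRE. That distant site cannot be told apart from a promoter of Ergic1. For ETS, 1 of 6 matches was footprinted in both, at Dusp4, against 12.5% of all matches, for EGR 1 of 9, at Dusp1, against 20.6%, and for the CCAAT box 1 of 14, at Dusp6, against 9.37%. GC boxes were the most frequent, with 6 of 26 matches footprinted in both libraries, at Dusp1, Dusp5 and Spred2, against 25.8% of all matches. Of the footprinted GC boxes at Dusp1, those centred at 74 and -21 bp were in the site at the start beside Ergic1. In the promoter windows a GC box was found in 5 of 7 genes against 47.7% of all windows, a CCAAT box in 3 of 7 against 37.8%, and a TATA box in none against 12.2%. Shared sites of the 9 genes near a start had a median GC content of 62.9% (n = 18), close to 63.6% over all 16141 such sites. Those away from starts had 57.3% (n = 9, of which 4 were at Spry2), against 52.3% over 13034. The 9 sites were not matched to the others in distance from a start.

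**Figure D3:**
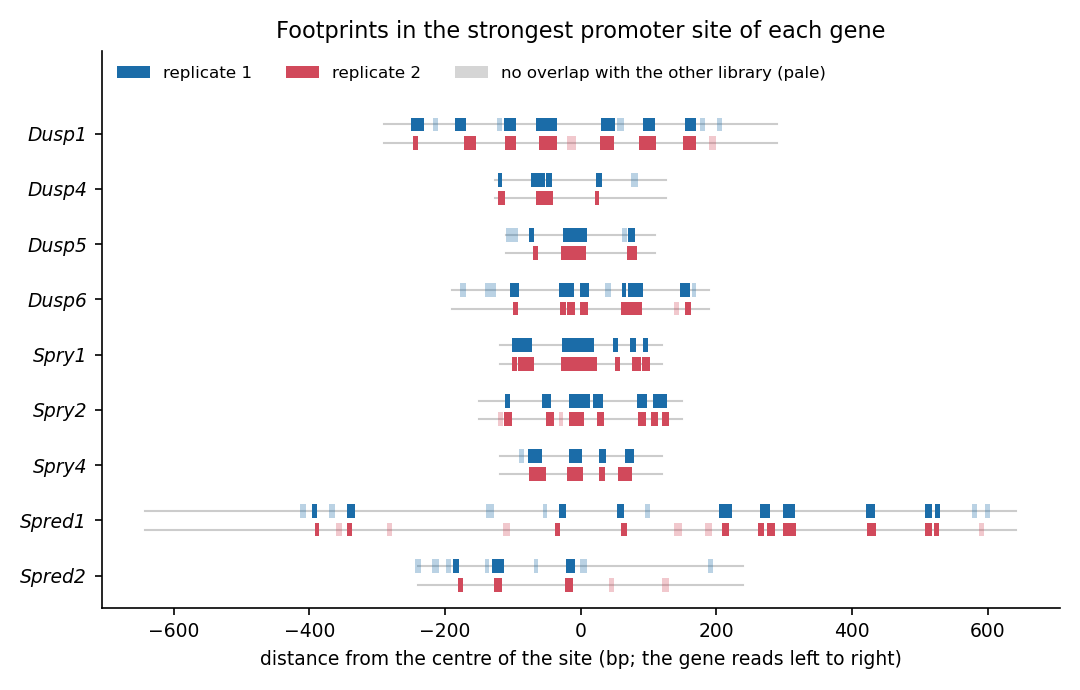
Deposited footprints (bars) in the strongest promoter site of each gene called in both libraries, by distance from the centre of the site (bp, with the gene reading left to right). Replicate 1 is drawn above replicate 2, the thin line is the extent of the site, and pale bars overlap no footprint of the other library. All Spry1 footprints were shared, and 3 of 10 in replicate 1 and 3 of 5 in replicate 2 were shared at Spred2.

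How well the libraries matched over these genes was close to the whole series. Of the stricter peaks in the 9 windows, 33 of 41 in replicate 1 (80.5%) and 35 of 47 in replicate 2 (74.5%) overlapped one of the other library, against 76.5% and 78.4% of all stricter peaks in replicates 1 and 2. Of the footprints, 87 of 181 (48.1%) and 93 of 207 (44.9%) were shared, against 46.0% and 43.6% of all footprints. After overlapping peaks were merged, the 9 windows held 46 sites, with 27 in both libraries, 8 in replicate 1 alone and 11 in replicate 2 alone. Of the 19 sites in 1 library, 12 were in the broader lists of both. The shared sites had a median strength of 1.88 and the sites of 1 library a median of 0.948. The strongest site of 1 library was at Dusp1, 351 bp after a start, with 1.89 in replicate 1. A site absent from one stricter list was thus not shown to be closed in that library.

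**Figure D4:**
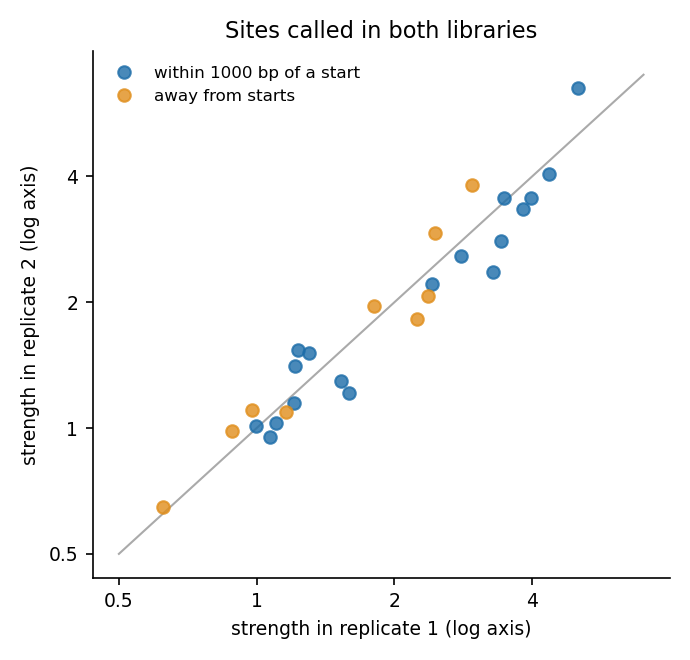
Peak strength in replicate 1 (horizontal, log axis) and in replicate 2 (vertical, log axis) of the 27 sites called in both libraries, with the line of equal values. Blue points lie within 1000 bp of the start of any gene and orange points away from all starts; the points run from 0.637 to 5.77 in mean strength and stay near the line.

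Set beside other genes of the pathway, the 9 inhibitors had more stricter peaks per 10 kb at the median, while the order against the related phosphatase and Spred genes turned with the broader list. Their median density in windows of the gene with 10 kb added at each end was 0.915 stricter peaks per 10 kb, against 0.550 for the 7 other MAP kinase phosphatase and Spred genes measured, 0.354 for 44 genes of the ERK cascade itself, and 0.301 for all protein-coding genes, 75% of which were at 0.626 or less. The median footprint density was 4.26 per 10 kb in the 9 genes, against 4.59 in the other phosphatase and Spred genes, 1.62 in the cascade genes and 1.32 in all genes. Against the other phosphatase and Spred genes its direction turned with the library, at 3.25 against 3.60 in replicate 1 and 4.70 against 4.68 in replicate 2. The median accessible share was 2.98%, against 1.66%, 1.59% and 1.09% in the same order. These measures divide by the length of the window, and the related and cascade genes were not matched to the 9 genes in length. Cascade genes ran up to 2960900 bp, against 99652 bp in the 9 genes. How far gene length sets these orders was not tested. Without peaks near the start of another gene the median peak density of the 9 genes was 0.457 per 10 kb. That setting also drops the strongest promoter sites of Dusp5, Spry1 and Spry4, which lie within 1000 bp of another gene's start. It was not run for all protein-coding genes. With 50 kb on each side the median peak density of the 9 genes was 0.355, against 0.286 for all protein-coding genes measured with that flank. With the broader list it was 1.38, against 1.58 for the other phosphatase and Spred genes and 0.476 for all genes, and with the strongest 50% of stricter peaks 0.523, against 0.163. The median footprint density of the 9 genes was 2.68 without footprints near the start of another gene (not run for all genes). It was 2.60 counting footprints inside stricter peaks alone (0.876 for all genes), and 1.83 with 50 kb on each side (1.24 for all genes). Among the 15939 protein-coding genes within the 9 genes' range of length, 4259 to 99652 bp, 56.9% had an accessible promoter and 27.3% a shared peak away from any start. Their medians were 0.350 stricter peaks and 1.59 footprints per 10 kb and an accessible share of 1.42%.

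The median promoter strength of the 9 genes was 3.52, against 2.53 in the other phosphatase and Spred genes, 2.37 in the cascade genes and 2.58 in all genes with a promoter peak in both libraries. By mean strength, 8 of the 9 genes lay above that last median and Dusp4 lay below it. Spry2, at 2.69 ± 0.150, was the nearest above it. Among genes with such a peak and within the 9 genes' range of length the median was 2.73, which Spry2 did not reach.

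**Figure D5:**
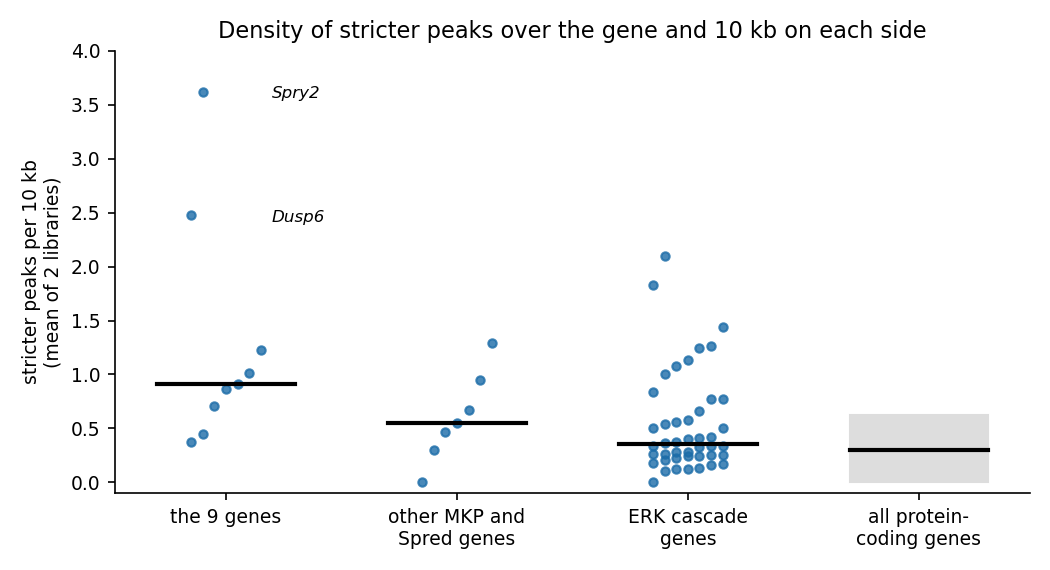
Stricter peaks per 10 kb of window, the gene with its flanks (mean of the 2 libraries), for the 9 genes, the 7 other MAP kinase phosphatase (MKP) and Spred genes and 44 ERK cascade genes, 1 point per gene, with medians as black lines. For all 21884 protein-coding genes the grey box spans the middle of the distribution, from 0 to 0.626. Spry2 and Dusp6 lie above every plotted gene of the other lists.

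Among the related genes, 6 of 7 had an accessible promoter and 1, Dusp16, a shared peak away from any start. Dusp7 and Dusp10 had strong promoters, at 5.03 and 4.09 in replicate 1 and 3.61 and 3.15 in replicate 2, and Dusp8 had 3.96 and 2.65. Spred3 had 1.78 in replicate 1 and 1.71 in replicate 2, Dusp2 had 1.05 and 0.935, and Dusp16 had 1.00 and 0.954. Dusp9, an X-linked phosphatase gene, had no stricter peak in its window in either library. Of the cascade genes, 40 of 44 had an accessible promoter and 18 a shared peak away from any start. The densest were Mapk3, which encodes ERK1 (2.10 ± 0.270 peaks per 10 kb), the transcriptional repressor gene Cic (1.83 ± 0.152) and Srf (1.44 ± 0.508). The receptor gene Egfr had no stricter peak in its window, and Elk3 and Fgfr3 had no promoter peak of the stricter list in either library.

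The tissue label was set against marker genes of cortex and of other organs. A promoter peak of the stricter list was found in both libraries at 8 of 10 cortical neuron genes (all but Neurod2 and Slc17a7), at 2 of 6 glial genes (Sox9 and Olig1), at none of 3 genes of inhibitory neurons, at none of 2 vessel genes and at none of 9 genes of other organs. With the broader list the counts were 8 of 10 cortical neuron genes, 4 of 6 glial genes, 3 of 3 genes of inhibitory neurons, 0 of 2 vessel genes and 1 of 9 genes of other organs. Replicates 1 and 2 held 40705 and 39508 stricter peaks, 71210 and 72217 peaks of the broader list, and 166128 and 174394 footprints. Read totals were not used here.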

How the data were processed

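DNase-seq files of 2 libraries of 1 group were analysed from the deposited peaks, footprints and FDR intervals. Coordinates are mm10 per the labels, counted from 1. Peaks were called on each library alone per the deposited notes, with aligner and caller not given in the sources used here. The authors deposited a signal value per peak, here its strength, whose normalization is not given, and it was compared between libraries without scaling. The authors also deposited FDR values (a kind of q-value) per interval, listed under 0.05, and footprint intervals. Of the 2 peak lists, the smaller is called stricter, and each of its peaks held an interval at 0.001 or less. The broader list does not hold every stricter peak. In replicate 2, a stricter peak at Dusp5 and another at Spry2 overlapped no broader peak. Read depth is unknown here, so no counting interval is given.

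Windows were the gene with 10 kb on each side, and a peak or footprint counted by its midpoint. Overlap meant at least 1 bp shared. Overlapping stricter peaks of both libraries were merged into sites. A motif was footprinted where its centre lay in a footprint. The alleles of the hybrid animals were not separated, and sequences are those of the reference.

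The 9 genes, the gene lists, the motifs and the rule for naming genes were chosen with earlier results of these data known. All 9 genes and every related phosphatase, Sprouty and Spred gene were named (7 of 8 matched a symbol used once; Spry3 did not), and of the cascade genes the 3 densest, the sparsest and those without a promoter peak in both libraries, apart from 1 that is not reported here. No p-value was computed. SDs are over 2 libraries and are rough. The peak counting was checked on simulated intervals. Alternatives were the peak list, peak strength, joining, flank, promoter distance, overlap, and leaving out each replicate. Python 3.11.15, pandas 2.3.3, numpy 2.4.6, pysam 0.24.0 and matplotlib 3.10.9 were used.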

Additional observations from a re-analysis of the deposited data

How the results depend on the processing

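The 9 of 9 genes with a promoter peak in both libraries held under every alternative tried, and so did the median promoter strength to within its spread except without replicate 1 (3.34 to 3.48 with either library left out). Some of these alternatives could not have lowered the count, namely joining, the longer promoter distance and leaving out a replicate. Joining and the longer distance could not have lowered the strength either, because the strongest peak of each gene is kept. The median peak density of the 9 genes, 0.915 per 10 kb, was 1.38 with the broader list, 0.523 with the strongest 50% of peaks, 0.784 with peaks within 200 bp joined, 0.796 over the gene body alone, 0.355 with 50 kb on each side, 0.457 without intervals near the start of another gene and 1.29 as a mean over genes; with either library left out it ranged from 0.865 to 0.915. All protein-coding genes had 0.476 with the broader list, 0.163 with the strongest peaks, 0.271 with joining, 0.101 over the gene body, 0.286 with 50 kb and 0.437 as a mean. The setting without intervals near the start of another gene was not run for all protein-coding genes. The share of peaks found in the other library, 77.5% as the mean of both directions, was 84.4% with the broader list, 90.0% with the strongest 50%, 83.3% with joining, 71.2% over the gene body and 71.8% with an overlap of 50% of the shorter peak. The median footprint density, 4.26 per 10 kb, was 6.26 over the gene body, 1.83 with 50 kb, 2.68 without intervals near another start, 5.47 as a mean and 2.60 with footprints inside stricter peaks alone, and 3.25 to 4.70 with either library left out. The 6 genes with a shared peak away from any start were 3 over the gene body alone, a setting in which all protein-coding genes were not counted. The cause of these shifts was not tested. Motif matches footprinted in both libraries numbered 11, and 14 with the CTCF consensus, which was chosen after seeing the data. No paired analysis was possible because there is 1 group. The normalization of strength and the read depth are unknown, which limits comparisons of strength between libraries.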
